A study of Mus musculus with 17 samples.

Results

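Hippocampal subfield marker genes are genes whose RNA is concentrated in the neurons of a single field of the hippocampus. The 10 genes described here were Prox1, Dsp, C1ql2, Tdo2 and Calb1 for the dentate gyrus, Rgs14, Amigo2 and Pcp4 for CA2, and Wfs1 and Fibcd1 for CA1. They were chosen by name from knowledge of these fields, with earlier results of these data known, out of 38355 gene identifiers in the count files. The study sequenced polyA RNA of hippocampus from untreated wild type C57BL/6J mice of 3 ages, to find which transcripts change as the hippocampus ages. Single-end libraries with 50 bp reads were made at 3 months (3M, 5 libraries) and 24 months (24M, 6 libraries), and paired-end libraries with 100 bp reads at 3 months (3 libraries) and 29 months (29M, 3 libraries). Each aged group was compared with 3M libraries of the same type, so the ages differ in library type as well and no 24M sample was set directly against a 29M sample.

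The hippocampus receives cortical input in the dentate gyrus, whose granule cells send mossy fibers to CA3. CA3 pyramidal cells project to CA1, and the small field CA2 lies between them with its own gene expression and a known part in social memory. Whole tissue was measured, so fewer cells of a field and less RNA per cell cannot be told apart in any result that follows, and every marker is also made at some level by other cells. Calb1, for example, is known in part of the CA1 pyramidal cells and in interneurons, and Pcp4 in the striatum.

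Between 9213474 and 28438296 reads were counted on genes per library, and the counts of the members ran from 56 for Tdo2 to 7125 for Fibcd1. 24M replicates 1 and 4 differed by less than sampling noise (their squared differences were 0.406 of those counting noise gives, against at least 1.23 in every other pair of libraries), so their rounded mean was counted as 1 sample and n was 5 at 24M. A sample apart from its group was 3M single-end replicate 4, in which 10 genes known from the striatum summed to 957.7 CPM (reads scaled to library size, after TMM) against 477.7 to 510.7 CPM in the other 4 samples of its group. Values that this sample moved by the most are given with and without it. The labels do not say that each library is a separate animal, so the p-values measure the spread between these samples.

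All 10 markers were detected in all 17 libraries and passed the filter on low counts in both comparisons. On the length-corrected scale of RPKM (reads per exon length and library size), Pcp4 had the highest mean level in every group, from 52.6 ± 4.67 (SD, n = 5) at 24M to 77.8 ± 12.6 (n = 3) in the 3M paired-end group. C1ql2, Wfs1 and Fibcd1 followed at means of 35.7 to 48.8 RPKM, then Calb1 and Rgs14 at 21.7 to 28.9 RPKM. Prox1 lay at 14.4 to 16.9 RPKM, Amigo2 at 7.79 to 11.1 RPKM, Dsp at 7.31 to 8.001 RPKM and Tdo2 lowest at 1.38 to 1.91 RPKM. The step from Rgs14 or Calb1 down to Prox1, the step from Prox1 down to Amigo2 and the step from Dsp down to Tdo2 separated the samples fully in all 4 groups. The neighbours Calb1 and Rgs14 had overlapping ranges in 3 of the 4 groups, and Amigo2 and Dsp overlapped in both 3M groups but not in either aged group.

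**Figure D1:**
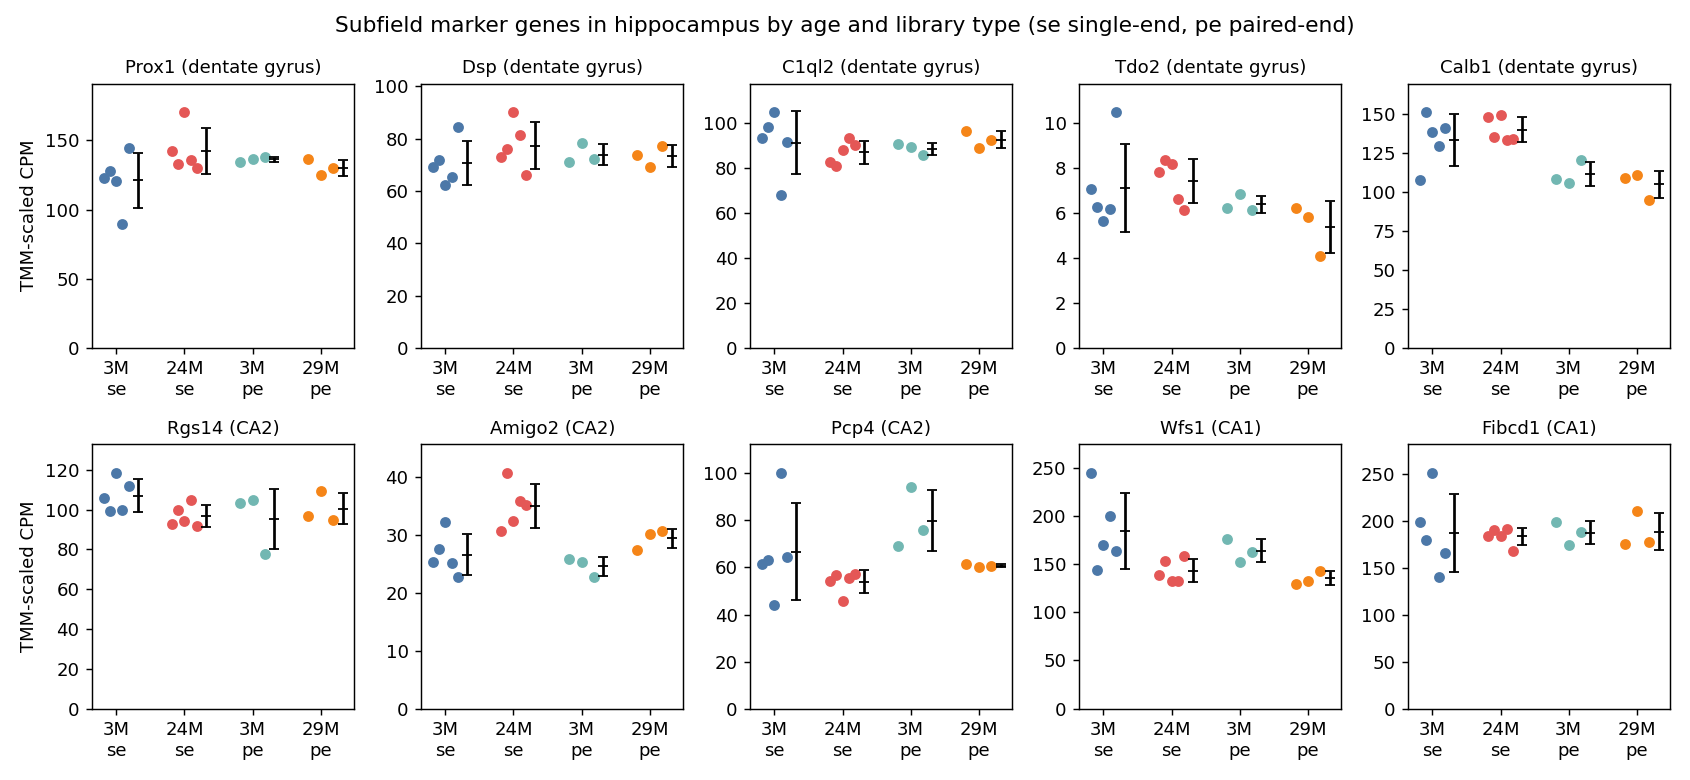
Levels of the 10 members in every sample, in TMM-scaled CPM on axes that start at 0. Points are samples (24M replicates 1 and 4 as 1 point), bars to their right are the mean and SD, and se and pe mark single-end and paired-end libraries; Amigo2 lies higher and Wfs1 lower in both aged groups, and Pcp4 reaches 100.3 CPM in 3M single-end replicate 4.

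The study's thresholds are an adjusted p no larger than 0.05 together with a log2 fold change of at least 0.5 in size. With these, 0 of 10 members were called at 24M by edgeR (quasi-likelihood test, Benjamini-Hochberg adjustment). Of all 15683 genes tested, 1.98% were called there, 1.34% higher and 0.638% lower, so a count of 0 among 10 genes lies near the background. At an unadjusted p under 0.05, 4 of 10 passed (Prox1, Rgs14, Amigo2 and Wfs1) against 26.1% of all genes. By DESeq2, 0 members were called as well. At 29M, 0 of 10 members were called, where 1.45% of the 15097 genes tested were called, 1.34% higher and 0.113% lower. At an unadjusted p under 0.05, 3 of 10 passed at 29M (Amigo2, Pcp4 and Wfs1) against 17.3% of all genes, and DESeq2 called 0 here too.

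Without the fold threshold, Amigo2 passed at 24M, higher, and Pcp4 and Wfs1 passed at 29M, both lower. That is 1 of 10 at 24M, where 5.58% of all genes passed (3.21% higher, 2.37% lower), and 2 of 10 at 29M, where 2.99% passed (2.32% higher, 0.662% lower). The largest absolute log2 fold change of a member was 0.39 (Amigo2) at 24M and 0.40 (Pcp4) at 29M. The 95% normal interval lay inside -0.5 to 0.5 for 7 of 10 members at 24M and 8 of 10 at 29M, against 72.5% and 75.5% of all genes tested. The exceptions were Amigo2, Pcp4 and Wfs1 at 24M, and Tdo2 and Pcp4 at 29M. The median log2 fold change of the 10 members was 0.02 at 24M and -0.04 at 29M, beside -0.0032 and -0.0021 for all genes.

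**Figure D2:**
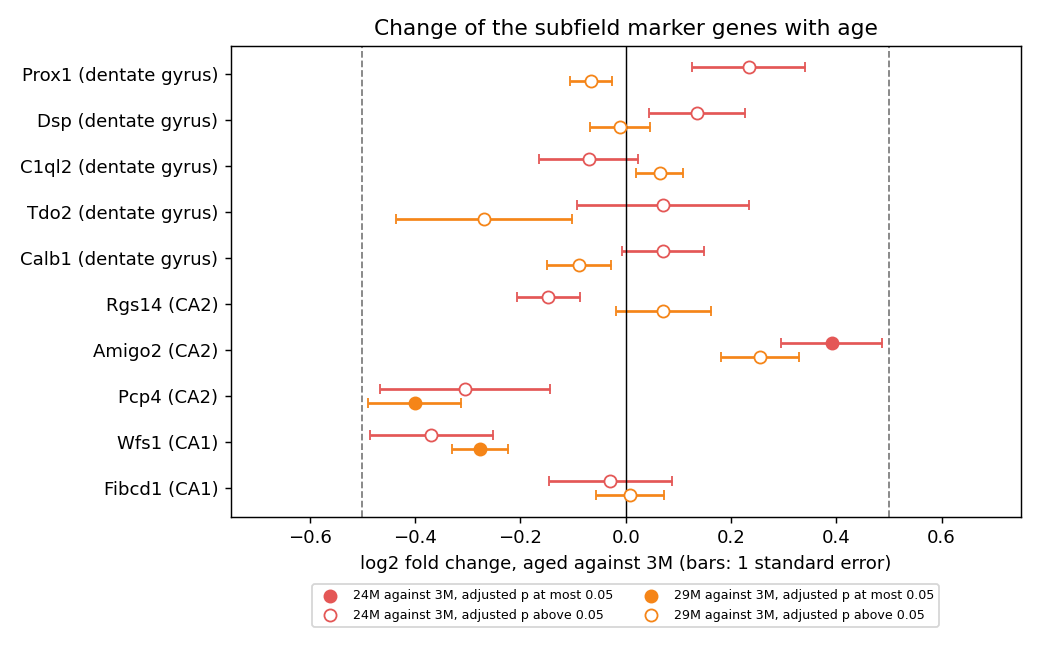
Log2 fold change of each member at 24M (red) and 29M (orange) against 3M of the same library type, with 1 standard error. Filled points have an adjusted p of at most 0.05 and dashed lines mark the fold threshold of 0.5; no point lies beyond a dashed line, and the filled points are Amigo2 at 24M and Pcp4 and Wfs1 at 29M.

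The values turn on Amigo2, Pcp4 and Wfs1, so the promoters of these genes are shown, as RefSeq gives them on GRCm38.p6, from 250 bases before to 50 bases after the annotated start. Capitals mark GC boxes (GGGCGG on either strand), the letters bound by Sp1-type factors. The Amigo2 window is chr15:97247238-97247537 on the minus strand, the Pcp4 window chr16:96467356-96467655 on the plus strand and the Wfs1 window chr5:36988933-36989232 on the minus strand.
Amigo2: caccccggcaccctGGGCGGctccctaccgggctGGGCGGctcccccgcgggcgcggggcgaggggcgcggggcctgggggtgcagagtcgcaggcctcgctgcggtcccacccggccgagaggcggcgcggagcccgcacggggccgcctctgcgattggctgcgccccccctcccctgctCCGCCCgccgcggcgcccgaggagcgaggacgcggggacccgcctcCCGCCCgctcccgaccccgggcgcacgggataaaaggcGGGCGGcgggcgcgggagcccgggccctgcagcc
Pcp4: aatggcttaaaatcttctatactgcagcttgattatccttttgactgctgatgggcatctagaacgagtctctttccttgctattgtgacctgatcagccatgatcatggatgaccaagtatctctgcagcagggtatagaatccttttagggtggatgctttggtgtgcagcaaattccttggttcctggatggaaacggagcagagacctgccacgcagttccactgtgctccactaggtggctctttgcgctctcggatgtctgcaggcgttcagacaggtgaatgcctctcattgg
Wfs1: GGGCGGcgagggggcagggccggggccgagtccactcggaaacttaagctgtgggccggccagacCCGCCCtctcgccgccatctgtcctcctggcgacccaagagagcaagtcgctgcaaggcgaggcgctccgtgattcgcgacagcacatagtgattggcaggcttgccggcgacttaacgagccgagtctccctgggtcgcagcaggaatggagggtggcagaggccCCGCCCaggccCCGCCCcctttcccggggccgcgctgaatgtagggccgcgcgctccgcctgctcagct
The Amigo2 window held 5 GC boxes in 83.3% G and C, the Wfs1 window 4 in 70.0%, and the Pcp4 window 0 in 48.7%. Over all 32851 mouse promoters in the same table, 35.7% held a GC box and the median G and C content was 52.7%. Other letters were searched too: an E box (CACGTG, in 7.15% of all promoters), a TATA box (TATAAA, 13.6%), a cyclic AMP response element (TGACGTCA, 1.79%), an AP-1 site (TGANTCA, 7.81%) and an EGR site (GCGTGGGCG, 0.612%). None of these was in the 3 windows on either strand, and the EGR letters can overlap a GC box. Windows matched 8 of the 10 members, and Calb1 and Rgs14 are named only. A match describes the letters and no binding was measured.

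Among the CA2 genes, Amigo2 encodes a cell adhesion protein of the cell surface with leucine-rich repeats. It has 1 exon of 3163 bases at chromosome 15, 97244125 to 97247287, minus strand (GRCm38, GENCODE M21), of which 58 bases overlap exons of Pced1b on the opposite strand. At 3M, the single-end samples held 25.4, 27.5, 32.3, 25.2 and 22.8 CPM. At 24M the mean of replicates 1 and 4 was 30.8 CPM and replicates 2, 3, 5 and 6 held 40.8, 32.4, 36.0 and 35.3 CPM. All 5 aged samples lay above the 3M mean, and only the pair's mean fell below the highest 3M sample, replicate 3. This gave a log2 fold change of 0.39 (SE 0.10, n = 5 against 5) with an adjusted p of 0.0350 by edgeR (quasi-likelihood test, Benjamini-Hochberg adjustment).

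Among paired-end samples Amigo2 held 25.8, 25.3 and 22.8 CPM at 3M and 27.5, 30.2 and 30.7 CPM at 29M. Every 29M sample was above every 3M sample. In the fit the difference was 0.26 on the log2 scale (SE 0.07, n = 3 against 3) and the adjusted p 0.0858 by edgeR (quasi-likelihood test, Benjamini-Hochberg adjustment), above the threshold. The 24M difference was sensitive to single libraries: its log2 fold change stayed between 0.33 and 0.47 with any 1 library left out, but its adjusted p ran from 0.0121 to 0.0988 and passed in 4 of 11 such fits. Without 3M single-end replicate 4 the adjusted p was 0.0702.

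Pcp4 encodes a small calmodulin-binding peptide, and its exons lie at chromosome 16, 96467606 to 96525793, plus strand, sharing 243 bases with an Igsf5 model on the same strand that has no line in the count files. At 3M, the single-end samples held 61.3, 63.1, 44.0, 100.3 and 64.5 CPM. At 24M the mean of replicates 1 and 4 was 54.4 CPM and replicates 2, 3, 5 and 6 held 56.8, 45.6, 55.6 and 57.3 CPM. The highest 3M value is replicate 4, the sample with the high sum of striatal genes, and the lowest 3M value is below all 24M samples. The log2 fold change at 24M was -0.31 (SE 0.16), with an adjusted p of 0.252, and leaving out 3M single-end replicate 4 gave -0.11 and 0.556 (edgeR's quasi-likelihood test, Benjamini-Hochberg adjustment).

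Among paired-end samples Pcp4 held 69.3, 94.2 and 76.0 CPM at 3M and 61.3, 60.1 and 60.5 CPM at 29M. Every 29M sample was below every 3M sample and the SD of the 29M samples was 0.612 CPM. Pcp4 at 29M had a log2 fold change of -0.40 (SE 0.09, n = 3 against 3) and the adjusted p 0.0270 by edgeR (quasi-likelihood test, Benjamini-Hochberg adjustment). The striatal genes summed to 468.0 to 479.3 CPM in these 3M samples and 455.1 to 495.7 CPM at 29M, which overlap. Gng7, Ppp1r1b and Pde10a made most of that sum, at 3M means of 211.1, 95.7 and 94.15 CPM, beside 6.504 CPM for Drd1. A striatal share in the Pcp4 values was not tested. The highest sample, 3M paired-end replicate 2, set much of the size: without it the log2 fold change was -0.26 (adjusted p 0.0497), and with any 1 library left out the adjusted p ran from 0.00374 to 0.127 and passed in 2 of 6 fits. Fitted together with the single-end groups, which share 1 estimate of the spread, Pcp4 at 29M again gave -0.40 on the log2 scale with an adjusted p of 0.517.

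Rgs14 encodes a regulator of G protein signalling that restrains synaptic plasticity in CA2. Its single-end samples spanned 99.2 to 118.6 CPM at 3M and 91.6 to 104.8 CPM at 24M, all 5 aged samples below the 3M mean, with a log2 fold change of -0.15 (SE 0.06) and an adjusted p of 0.141. At 29M it was 0.07 (SE 0.09) with an adjusted p of 0.746 by edgeR (quasi-likelihood test, Benjamini-Hochberg adjustment), and leaving out 3M paired-end replicate 3, the lowest sample at 77.96 CPM, gave -0.05, while without 3M replicate 2 it was 0.15 and without 29M replicate 2 it was 0.0049. In the group means of the CA2 markers, Amigo2 was above and Pcp4 below its 3M mean at both ages, and Rgs14 lay on different sides. Of these changes only those of Amigo2 at 24M and Pcp4 at 29M passed the adjusted threshold. Whether the CA2 markers differ from each other in age effect was not tested. As a group they summed to 200.4 ± 14.4 CPM at 3M and 185.7 ± 11.1 CPM at 24M (SD, n = 5 each), and to 199.8 ± 23.9 and 190.6 ± 7.98 CPM at 3M and 29M (n = 3 each).

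**Figure D3:**
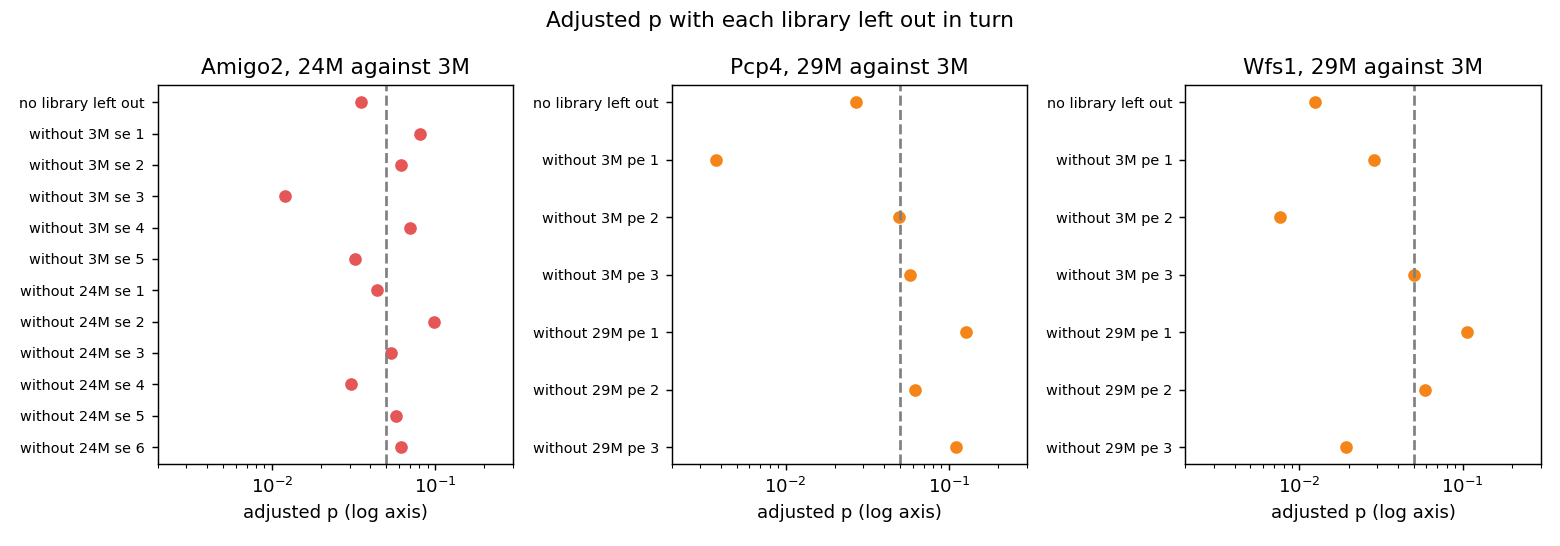
Adjusted p (log axis) of Amigo2 at 24M and of Pcp4 and Wfs1 at 29M when single libraries are left out; the top point of each panel is the fit with no library left out and the dashed line is 0.05. Points fall on both sides of the line for all 3 genes, 4 of 11, 2 of 6 and 3 of 6 at or below it.

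For CA1, Wfs1 encodes wolframin, a membrane protein of the endoplasmic reticulum with a role in calcium balance, and lies at chromosome 5, 36966104 to 36989205, minus strand. At 3M, the single-end samples held 245.2, 144.2, 169.9, 200.5 and 163.5 CPM. At 24M the mean of replicates 1 and 4 was 139.2 CPM and replicates 2, 3, 5 and 6 held 152.9, 132.6, 133.0 and 158.3 CPM. All 5 aged samples were below the 3M mean, with overlap at the low 3M value of replicate 2. The log2 fold change at 24M was -0.37 (SE 0.12), with an adjusted p of 0.0732 by edgeR (quasi-likelihood test, Benjamini-Hochberg adjustment). Replicate 1 was the highest 3M sample, and without it the log2 fold change was -0.25 (adjusted p 0.141).

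Among paired-end samples Wfs1 held 176.8, 152.6 and 163.0 CPM at 3M and 129.7, 132.6 and 143.5 CPM at 29M. Every 29M sample was below every 3M sample. Its log2 fold change was -0.28 (SE 0.05, n = 3 against 3) and the adjusted p 0.0124 by edgeR (quasi-likelihood test, Benjamini-Hochberg adjustment). With any 1 library left out the log2 fold change lay between -0.33 and -0.22 and the adjusted p between 0.00759 and 0.106, passing in 3 of 6 fits. With all 4 groups in 1 fit the adjusted p of Wfs1 at 29M was 0.518, while that of Wfs1 at 24M was 0.0265.

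Fibcd1, a membrane receptor with a fibrinogen-like domain, gave nearly equal group means. They were 187.5 ± 41.8 CPM at 3M and 183.9 ± 9.31 CPM at 24M (SD, n = 5 each), and 187.4 ± 12.2 and 188.5 ± 19.8 CPM at 3M and 29M (n = 3 each). The log2 fold changes were -0.03 (SE 0.12, 95% interval -0.26 to 0.20) and 0.01 (SE 0.06, -0.12 to 0.13), with adjusted p of 0.906 and 0.965 by edgeR (quasi-likelihood test, Benjamini-Hochberg adjustment). The 2 CA1 markers thus differed in value at both ages, and their difference in age effect was not tested. Fibcd1 was highest in 3M single-end replicate 3 (251.7 CPM) and lowest in replicate 4 (140.6 CPM), and its 24M change was 0.10 without replicate 3 and -0.12 without replicate 4.

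The dentate gyrus markers gave no adjusted p below the threshold at either age. Prox1, a homeobox transcription factor that granule cells need for their identity, held 123.1, 127.7, 121.0, 89.5 and 144.2 CPM at 3M in the single-end samples. At 24M the mean of replicates 1 and 4 was 142.1 CPM and replicates 2, 3, 5 and 6 held 132.7, 170.6, 136.0 and 129.8 CPM. All 5 aged samples were above the 3M mean, and 4 of them were below the highest 3M sample. The log2 fold change was 0.23 (SE 0.11) and the adjusted p 0.189 by edgeR (quasi-likelihood test, Benjamini-Hochberg adjustment); without 3M single-end replicate 4, the lowest sample, it was 0.14 (adjusted p 0.307), and without 24M replicate 3, the highest, 0.15 (adjusted p 0.427). At 29M, Prox1 went from 134.5, 136.7 and 138.1 CPM to 136.3, 124.7 and 130.1 CPM, a log2 fold change of -0.07 (SE 0.04, adjusted p 0.436).

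Dsp encodes desmoplakin, the plaque protein of desmosomes, and 499 of its exon bases overlap a gene model on the opposite strand that has no line in the count files. It spanned 62.2 to 84.3 CPM at 3M and 66.0 to 90.2 CPM at 24M, a log2 fold change of 0.14 (SE 0.09), and its 29M change was -0.01 (SE 0.06). C1ql2 encodes a secreted C1q-like protein of mossy fiber synapses, and its means of 91.2 ± 14.0 and 86.9 ± 5.19 CPM at 3M and 24M (SD, n = 5 each) gave a log2 fold change of -0.07 (SE 0.09). At 29M the C1ql2 change was 0.06 (SE 0.04). Its lowest sample of all was again 3M single-end replicate 4, at 67.9 CPM, and leaving out that sample moved the 24M change of C1ql2 to -0.16 (unadjusted p 0.0192, adjusted p 0.138 by edgeR). The 24M change of Dsp was 0.07 without 24M replicate 3, its highest sample.

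Calb1 encodes calbindin, a calcium buffer of mature granule cells. Its means were 133.7 ± 16.5 and 140.3 ± 8.001 CPM at 3M and 24M, and 111.7 ± 7.66 and 105.0 ± 8.78 CPM at 3M and 29M, for log2 fold changes of 0.07 (SE 0.08) and -0.09 (SE 0.06). Tdo2, the dioxygenase that opens the breakdown of tryptophan to kynurenine, was the member with the fewest reads, from 56 to 212 per sample. It spanned 5.62 to 10.5 CPM at 3M and 6.13 to 8.35 CPM at 24M, and went from 6.11 to 6.81 CPM at 3M to 4.07 to 6.22 CPM at 29M. Its log2 fold changes of 0.07 (SE 0.16) and -0.27 (SE 0.17) had the widest intervals among the dentate gyrus markers, -0.25 to 0.39 and -0.60 to 0.06, so that no change and a fall past the fold threshold both lie inside the 29M interval. The 29M value of Tdo2 rested largely on 29M replicate 3, its lowest sample, and was -0.09 without it and -0.39 without 29M replicate 1. At 24M it was 0.24 without 3M single-end replicate 5, the highest sample. For Calb1, the change was 0.0019 at 24M without 3M single-end replicate 1 and -0.02 at 29M without 29M replicate 3. Over Dsp, C1ql2, Calb1 and Tdo2, the adjusted p ran from 0.362 to 0.821 at 24M and from 0.441 to 0.949 at 29M by edgeR (quasi-likelihood test, Benjamini-Hochberg adjustment). Prox1 shares 133 exon bases with the antisense gene Prox1os, and the sources used here do not give the strand setting of the counting, so reads there could belong to either.

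The groups of no member were free of overlap at 24M (0 of 10, against 6.57% of all genes tested, 3.42% with aged samples below and 3.15% above). At 29M, 3 of 10 were free of overlap (Amigo2 above, Pcp4 and Wfs1 below), against 22.4% of all genes, 11.9% above and 10.5% below. Amigo2, Pcp4 and Wfs1 were also the only members with the same sign of change at both ages, 3 of 10 against 59.7% of the 14898 genes tested at both. The other 7 changed sign between ages with every one of these changes short of the adjusted threshold at both. Tested directly, the age effects differed for 0 of 10 members, and for 0 of 16055 genes (0%), by edgeR (quasi-likelihood test, Benjamini-Hochberg adjustment). At an unadjusted p under 0.05 the difference passed for 0 of 10 members against 10.4% of all genes, DESeq2 gave 0 members, and the adjusted p ran from 0.499 (Prox1) to 0.966 (Fibcd1).

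The members varied more between the young single-end samples than between the aged ones. The coefficient of variation was larger at 3M than at 24M in 10 of 10 members (medians 15.9% and 8.54%), where 58.1% of all genes had the larger value at 3M (medians 9.95% and 8.77%). Without 3M single-end replicate 4 this held for 9 of 10 members, with a median of 14.4%. For paired-end samples, 4 of 10 members had the larger coefficient at 3M, against 55.0% of all genes.

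**Figure D4:**
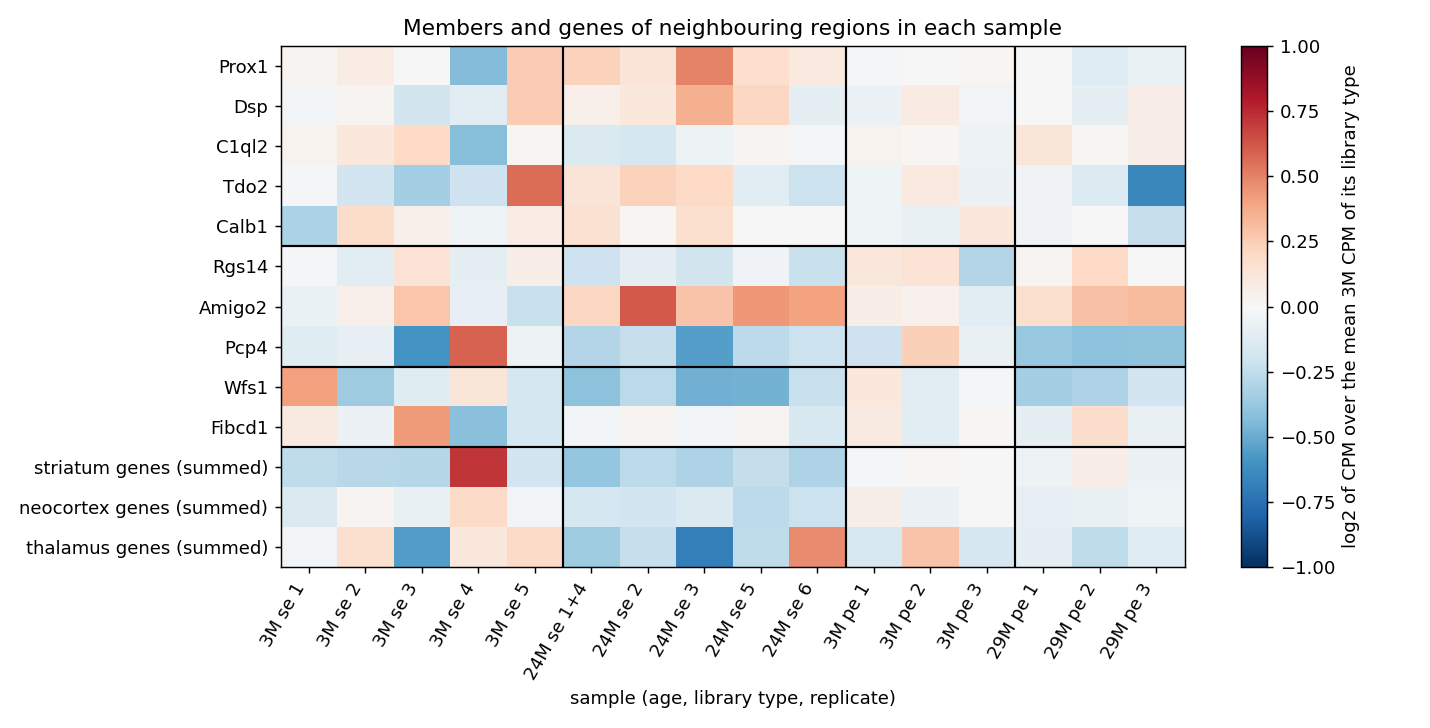
Log2 of the CPM of each member, and of the summed CPM of 3 lists of genes of neighbouring regions, over the mean 3M CPM of the same library type, for every sample; red is higher and blue lower, and black lines divide the groups and the subfields. In 3M single-end replicate 4, Prox1, C1ql2 and Fibcd1 are low and Pcp4 and the striatum genes are high, and Amigo2 is red and Wfs1 blue in all aged samples.

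Across the 16 samples, after the mean of each group was subtracted from its log2 CPM, the 45 pairs of members were correlated, and 0 pairs reached an adjusted p of 0.05 (permutation test with 100000 resamples, two-sided). The most negative value was Pcp4 with Fibcd1 (r = -0.85, rho = -0.62, adjusted permutation p 0.156 and 0.335). Its r was -0.40 without the 2 samples where Pcp4 lay farthest from its median, so it rests largely on those samples. The pair of granule cell genes Prox1 and Dsp had r = 0.68 and rho = 0.56 (adjusted permutation p 0.397 and 0.388). Their r was 0.66 without the 2 samples where Prox1 lay farthest from its median, and samples far out in Dsp were not dropped. Of the 14 pairs within a subfield, 10 had r above 0, and of the 31 pairs between subfields, 13.

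Among all 16055 genes, the genes whose deviations were most like those of Fibcd1 were Gpr161 (r = 0.95, rho = 0.86), Mycl (r = 0.94, rho = 0.78) and Crym (r = 0.93, rho = 0.91). Gpr161 and Crym are themselves on the list of other CA1 markers. Without the 2 samples where Fibcd1 lay farthest from its median, r was 0.79, 0.80 and 0.74. Those most like Prox1 were Ncor1 (r = 0.95), Kmt2c (r = 0.93) and Dmxl2 (r = 0.93), and those most like C1ql2 were Ankrd6 (r = 0.94), Fam13c (r = 0.92) and Stk32b (r = 0.90). For Pcp4 they were BC034090 (r = 0.92), Csrp1 (r = 0.92) and Cpne9 (r = 0.91), for Wfs1 Fermt1 (r = 0.88), Bin1 (r = 0.86) and Naxd (r = 0.86), and for Amigo2 Ube2g2 (r = 0.86), Celf6 (r = 0.85) and Cpe (r = 0.81). For Dsp they were Gm17024 (r = 0.89), Cd109 (r = 0.87) and C130071C03Rik (r = 0.86), for Tdo2 Sertad4 (r = 0.86), Cdh12 (r = 0.86) and Sema3c (r = 0.85), for Calb1 Gm16054 (r = 0.93), Nol11 (r = 0.88) and Kpna1 (r = 0.88), and for Rgs14 Fam120b (r = 0.82), Tbc1d1 (r = 0.81) and Zfp526 (r = 0.81). These genes were picked as the highest of all genes over the same 16 libraries, so no p is given, and 3M single-end replicate 4 is among the points.

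Other markers of the same fields were read from lists. Of 14 other dentate gyrus markers, 1 was called higher at 24M (Pter, log2 fold change 0.62, SE 0.14, adjusted p 0.0232) and 0 at 29M, with medians of 0.13 and 0.02; the smallest p at 29M were those of Plk5 (0.34) and Npnt (-0.31). Of the other CA2 markers 0 of 9 passed at 24M and 0 of 8 at 29M (medians 0.08 and -0.02), and the smallest p were those of Cacng5 (-0.26) and Stard5 (0.14) at 24M and Cacng5 (-0.44) and Ccdc3 (0.22) at 29M. Of 12 CA3 markers 0 were called; Plagl1 (0.47, adjusted p 0.0268) and Elavl2 (0.39, adjusted p 0.0136) passed at 24M below the fold threshold, and their log2 fold changes at 29M were 0.05 and -0.02 (medians of the list 0.05 and 0.02). The smallest p of that list at 29M were those of Grik4 (0.09) and Prss35 (-0.18). For the 8 other CA1 markers the list medians were -0.0037 and -0.09. At 29M, where 0 CA1 markers of that list were called, Man1a was at -0.21 (adjusted p 0.0516) and Pou3f1 at 0.20. All adjusted p in this and the next paragraph are those of edgeR's quasi-likelihood test after Benjamini-Hochberg adjustment.

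Of 6 subiculum markers 0 were called (medians -0.25 and -0.18). Slc17a6, a vesicular glutamate transporter that is also on the thalamus list, was at -0.47 on the log2 scale at 29M (adjusted p 0.0140) beside -0.34 at 24M. Nts was at -0.43 and -0.46 at the 2 ages and Tshz2 at -0.32 at 24M, and none of these passed. The 10 general neuron genes, which include Slc17a7, Camk2a and Neurod6 of excitatory neurons, gave 0 calls (medians 0.0073 and -0.04). Smallest in p were Nefl (0.16) and Tubb3 (-0.22) at 24M and Tubb3 (-0.16) and Map2 (-0.13) at 29M. Among 8 genes of newborn granule cells, Dcx (-0.54), Sox11 (-0.72), Draxin (-2.19) and Igfbpl1 (-2.07) were called lower at 24M. Neurod1 was higher there below the fold threshold (0.39, adjusted p 0.0398), and Eomes (-0.33), Tubb2b (-0.17) and Calb2 (0.09) did not pass. At 29M, where Draxin was under the filter on low counts, Igfbpl1 (-2.76) and Eomes (-2.41) were called lower, and Dcx (-0.35, adjusted p 0.0368) and Tubb2b (-0.27, adjusted p 0.00703) were lower below the fold threshold. Sox11 (-0.50), Calb2 (-0.45) and Neurod1 (-0.11) did not pass at 29M; without 3M single-end replicate 4, 2 rather than 4 were called at 24M. Of 9 interneuron genes 0 were called, with Slc32a1 (-0.39, adjusted p 0.0367) and Cck (-0.22, adjusted p 0.0459) lower at 24M and Reln (-0.23, adjusted p 0.0426) at 29M, beside Cck at -0.12 there.

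Genes known from neighbouring tissue were read beside the members, and the share of other regions in a dissection was not measured. The 10 striatum genes had a median change of -0.53 on the log2 scale at 24M with 0 called, 0.02 without 3M single-end replicate 4, and -0.03 at 29M. Rgs9 was at -0.63 at 24M. The 8 neocortex genes had a median change of -0.37 at 24M with Cux2 and Lamp5 called lower, -0.27 with 0 called without that sample, and -0.05 at 29M with 0 called, where Rgs4 was at -0.18 and Tbr1 at -0.09. Their sums were 738.7 to 928.6 CPM at 3M and 677.5 to 735.5 CPM at 24M, and 616.2 to 668.2 and 605.4 to 623.6 CPM in the paired-end libraries. In the single-end samples every 24M sum lay below every 3M sum, the nearest being 735.5 and 738.7 CPM. Of single genes 3.42% lay so among all genes tested, and no such share was taken for sums of 8 genes. Rgs4 gave a large part of the lower 24M sums, with means of 247.1 and 188.3 CPM at 3M and 24M. The highest single-end 3M means of the list were those of Rgs4, Bcl11b (187 CPM) and Rasgrf2 (140.6 CPM), so the sum follows these genes most. Whether their reads come from neocortex or from hippocampus was not tested. Of the 8 genes, 7 were lower at 24M and 1 was higher, Bcl11b, at means of 187 and 205.2 CPM. Wfs1 and Pcp4 are also made outside the hippocampus, and the part of these sums in their 24M values was not tested. The 6 thalamus genes (medians -0.13 and -0.10) and the 6 choroid plexus genes (0.06 and -0.10) gave 0 calls, with choroid plexus sums of 2033 to 8422 CPM at 3M and 4634 to 7776 CPM at 24M. Smallest in p were Ramp3 (-0.63) and Slc17a6 (-0.34) at 24M and Slc17a6 (-0.47) and Tcf7l2 (0.67) at 29M for the thalamus, and Aqp1 (-0.21) and Ttr (0.19) at 24M and Kcnj13 (-0.20) and Clic6 (-0.15) at 29M for the choroid plexus. No gene of these 4 region lists was at 0 CPM in a whole group.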

How the data were processed

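Hippocampal RNA was sequenced in 17 libraries. Per the labels, the authors deposited raw counts per gene and library, made with STAR 2.3.0 and HTSeq on GRCm38.p2; annotation and strand setting are not given in the sources used here. Reads on no gene line, 23.9% to 40.3% of a library, stayed out of library sizes and tests. Identifiers were named from GENCODE M21 (36602 of 38355 matched).

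Counts were tested on all genes with edgeR 4.0.16 (TMM, default filter, quasi-likelihood, Benjamini-Hochberg adjustment) in R 4.3.3, in a fit per library type; a fit of all 4 groups gave the difference between age effects. A standard error is the size of the log2 change over the root of F. On simulated data the 24M step recovered 192 of 200 changed genes with 6 false calls among 15550 genes, and the 29M step 194 of 200 with 12 among 14953. Recovery of differences as small as those of the members was not tested. DESeq2 1.42.0, its size factors, a filter of only 1 count, a filter of 1 CPM, all groups in 1 fit, the replicate number as a block, no fold threshold, each library left out and the 24M pair kept apart or left out were alternatives. The members and lists were chosen with earlier results of these data known. Named were all members, from each list the genes called or otherwise the 2 of smallest p, and 3 nearest genes per member. Some list genes are not reported here.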

Additional observations from a re-analysis of the deposited data

Results flagged for a closer look

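In 50 groups of 5 samples (10 members and 15 lists in both single-end groups), a sample was marked as far from the others where its gap to the nearest sample exceeded 0.71 of the range of the group. This was so in 4 groups, and chance marks about 1 in 20 groups, which is 2.5 here.

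The summed CPM of the striatum genes stood out in 3M single-end replicate 4, at 957.7 against 477.7 to 510.7 in the other samples, a gap of 0.931 of the range. In the same sample the CA2 members summed to 225.5 CPM against 189.9 to 199.4, a gap of 0.733 of the range, with Pcp4 at 100.3 CPM. Pcp4 stood out in 24M replicate 3, at 45.6 CPM against 54.4 to 57.3, a gap of 0.748. In that sample the other dentate gyrus markers summed to 1668 CPM against 1478 to 1518, a gap of 0.790.

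For Prox1, every 24M sample lay above its 3M mean and every 29M sample below its own, with log2 fold changes of 0.23 and -0.07. The difference of these effects was -0.30 on the log2 scale (SE 0.15), with an adjusted p of 0.499 by edgeR (quasi-likelihood test, Benjamini-Hochberg adjustment).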

How the results depend on the processing

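The count of members called stayed at 0 at both ages and under every alternative run except the removal of the fold threshold, which gave 1 at 24M and 2 at 29M. The count with an adjusted p of at most 0.05 was 1 at 24M. It was 2 (Amigo2 and Wfs1) under DESeq2, with no filter on low counts, with all 4 groups in 1 fit and with the 24M libraries kept apart, 0 under the replicate block, and 0 to 2 with 1 library left out. At 29M it was 2, 3 with no filter on low counts (Amigo2 also, adjusted p 0.0272), 0 with all 4 groups in 1 fit, and 0 to 2 with 1 library left out. The difference between age effects passed for 0 members in all 24 fits. The cause of these shifts was not tested.

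Equal replicate numbers gave no sign of pairing. The r of same-numbered deviations was -0.137 to 0.0535 at 24M and -0.069 to 0.0965 at 29M. A sample correlated best with its own number in 1 of 4 and 1 of 3 cases. Number 4 was not checked, as it was merged at 24M, and so few cases cannot tell whether equal numbers share a batch. With the replicate block Amigo2 at 24M was 0.37 (adjusted p 0.180), and Pcp4 and Wfs1 at 29M were -0.39 (adjusted p 0.0134) and -0.28 (adjusted p 0.00767), by edgeR's quasi-likelihood test.

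Direction held in 140 of 140 member values under the alternatives other than leaving out 1 library, and turned in 8 of 170 with 1 library left out, all of them members near 0. At 24M, leaving out 1 library gave -0.0079 to 0.2436 for Tdo2 (turned without 3M single-end replicate 3) and -0.1163 to 0.1011 for Fibcd1 (turned without that sample or 24M replicate 6, at 0.0001). At 29M, it gave -0.0508 to 0.0352 for Dsp and -0.0802 to 0.0548 for Fibcd1 (both turned without 3M or 29M replicate 2, at 0.0294 for Dsp and -0.0404 for Fibcd1 under the other of these), and -0.0518 to 0.1479 for Rgs14 (turned without 3M replicate 3). Counts limit Tdo2 most, at 56 to 212 reads per sample.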
